A study of Saccharomyces cerevisiae with 26 samples.

Results

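The genes that encode the proteins of the cytosolic ribosome were followed in RNA sequencing data of *Saccharomyces cerevisiae* CEN.PK113-7D, a haploid laboratory yeast strain. Members were the rows of the deposited tables whose systematic identifier carries, in release R64 of the yeast genome, a standard name of RPL or RPS followed by a number and an optional A or B, together with *RPP0*, *RPP1A*, *RPP1B*, *RPP2A* and *RPP2B*. This rule gave 137 of the 6600 genes in each file, of which 76 belong to the large subunit, 56 to the small subunit and 5 to the stalk. It used no measured value. All 26 libraries came from aerated, glucose-limited bioreactor cultures of this single strain on synthetic medium. At steady state, with a dilution rate of 0.025 per hour, cultures were kept at pH 3 with 50% CO2 in the inflowing gas, pH 3 and 0.04% CO2, pH 5 and 50% CO2, or pH 5 and 0.04% CO2, with 3 libraries each. In retentostats, where the biomass is kept in the reactor and growth slows towards zero, 2 cultures under industrial conditions (pH 3, 50% CO2) and 2 under laboratory conditions (pH 5, 0.04% CO2) were each sampled at 4 points, the first of which was the steady state before retention began. For pH 3 with 50% CO2, the labels name only 1 library, replicate 3, as a chemostat, and the other 2 are the first-point libraries of industrial retentostats 1 and 2. By the methods of the study, low-pH cultures oscillated and the laboratory retentostats were sequenced by another company with single-end reads, whereas the labels give a single company, so no test was made of levels between the laboratory retentostats and the others, and ratios between them are given as descriptions. For the steady states with compressed air, the growth text in the labels gives 50% CO2 in the gas whereas their condition label gives 0.04%, and the condition label was used here. The labels give the order of sampling, not a growth rate for each sample, and sampling point therefore stands for falling growth rate.

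A ribosome has a large subunit, where peptide bonds form, and a small subunit, where the mRNA is decoded, and each protein occurs once per ribosome except those of the stalk. The stalk is a flexible arm of the large subunit that recruits the translation factors that use GTP, with P0, encoded by *RPP0*, as its base and pairs of the acidic P1 and P2 proteins bound to it. In yeast most ribosomal proteins are encoded by a pair of paralogs, called A and B, left by an ancient genome duplication, and many of the genes carry an intron, which is rare elsewhere in this genome. Their transcription is driven by Rap1 with Fhl1 and Ifh1, responds to nutrients through TORC1 and protein kinase A, and is known to track growth rate closely.

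Of the 137 members, 114 form 57 A and B pairs and 23 have no such duplicate, here also counting the stalk genes. In the annotation, 48 had no intron, 87 had 1 and 2, *RPL7A* and *RPL7B*, had 2. The 2 sequences of a pair can be nearly the same, and 21 pairs encode identical proteins. Reads that could not be placed uniquely were removed by the authors, which bears on the most similar pairs. Of 150-base windows along each coding sequence, 14 members had fewer than 90% that occur only once in the genome. *RPL41A* and *RPL41B*, with 78 coding bases, are shorter than a window, so this was not assessed for them. In *RPL35A* and *RPL35B* 28.5% of windows were unique, and in *RPS8A* and *RPS8B* 30.4% were. Among the members assessed, the values of these 4 rest on the smallest part of their length. A call for an A or B gene of such a pair is uncertain as to which copy changed. The same holds for *RPL41*, whose copies are 98.7% identical in coding sequence.

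Because the members are best known for the Rap1 sites upstream of them, the sequence behind that name was looked up in R64 for the 500 bases before each start codon. The motif searched was ANCCNTACA on either strand, in which N is any base. It was found upstream of 68 of the 137 members (49.6%), against 366 of all 5915 annotated coding genes (6.19%), and at least 2 matches were found for 12.4% of members and 0.541% of all genes. The median match of a member lay 318 bases before the start codon, with quartiles of 270 and 384. The stretches below are from members that the comparisons turn on and that held a match. *RPP0*, *RPL3*, *RPL4A*, *RPL4B* and *RPL5*, on which the comparisons also turn, held none. Of the 2 matches of *RPS30A*, 1 is shown. They run 5′ to 3′ on the coding strand of the gene, with the match in capitals, and a match on the other strand reads as TGTANGGNT. A match is a string of letters and was not tested as a binding site.
*RPP2A* (chromosome XV, 253965 to 254003): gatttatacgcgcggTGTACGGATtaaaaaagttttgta
*RPP1B* (chromosome IV, 229617 to 229679): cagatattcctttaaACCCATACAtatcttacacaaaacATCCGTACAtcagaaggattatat
*RPS11B* (chromosome II, 332512 to 332550): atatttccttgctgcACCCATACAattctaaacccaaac
*RPS30A* (chromosome XII, 713457 to 713495, reverse strand): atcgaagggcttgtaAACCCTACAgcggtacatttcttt
*RPL41B* (chromosome IV, 222122 to 222160, reverse strand): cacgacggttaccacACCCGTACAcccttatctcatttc
*RPL35B* (chromosome IV, 217301 to 217339): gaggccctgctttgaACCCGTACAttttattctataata

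The other letters searched in the same windows stood out less. GACGCA, the core bound by Fhl1, was found upstream of 15.3% of members and 10.3% of all coding genes. GATGAG, the PAC element of ribosome biogenesis genes, was found upstream of 21.9% of members and 27.8% of all genes, and AAAATTTT, the RRPE element of the same genes, upstream of 12.4% and 12.6%.

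Levels are given as scaled FPKM, that is, the deposited FPKM multiplied by a factor for each library that aligns the bulk of its genes with the other libraries, and expressed per kilobase of coding sequence. The tests and their limit on low values used scaled FPKM per kilobase of gene span, introns included. Mean levels over the 26 libraries ran over a 193-fold range, with a median of 1354 scaled FPKM. The highest were those of *RPL41A*, at 19857, *RPL41B* and *RPS30A*, and the lowest those of *RPL15B*, at 103, *RPS28B* and *RPL18B*. Without the 8 laboratory retentostat libraries the lowest means were those of *RPS28B*, at 94.8, *RPS13*, at 100.2, and *RPL15B*, at 112. *RPL41A* and *RPL41B* encode the smallest protein of the ribosome from 78 bases of coding sequence, so that their levels per kilobase rest on the fewest bases. Proteins that occur once per ribosome thus had transcripts at very unequal levels. As a check of the haploid strain, *STE2* and *MFA1*, genes of MATa cells, ran between 70.2 and 855 and between 1429 and 33155 scaled FPKM, and *STE3* and *MF(ALPHA)1*, genes of MATalpha cells, between 19.5 and 57.2 and between 10.6 and 2646.

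Between 12528647 and 86470818 reads were counted on genes per library, and the 137 members held 2.97% to 11.6% of them. At pH 3 with 50% CO2 the members held 10.2% to 11.4%, at pH 3 with 0.04% CO2 7.94% to 10.0%, at pH 5 with 50% CO2 10.5% to 11.6% and at pH 5 with 0.04% CO2 10.7% to 11.02%. The libraries of pH 3 with 0.04% CO2 lay below all other steady-state libraries in this share. The same 3 libraries had the largest scaling factors, 1.34 to 1.59, against 0.741 to 1.22 in the other 23, so the direction of small changes at pH 3 with 0.04% CO2 depends on the scaling. In the industrial retentostats the share was 11.1% and 11.4% at the first point, 7.73% and 9.16% at the second, 8.65% and 9.27% at the third and 8.67% and 8.84% at the fourth, so both cultures dropped at the second point and stayed there. FPKM is relative to all transcripts in a library, so less RNA per cell and fewer live cells cannot be told apart from these data.

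**Figure D1:**
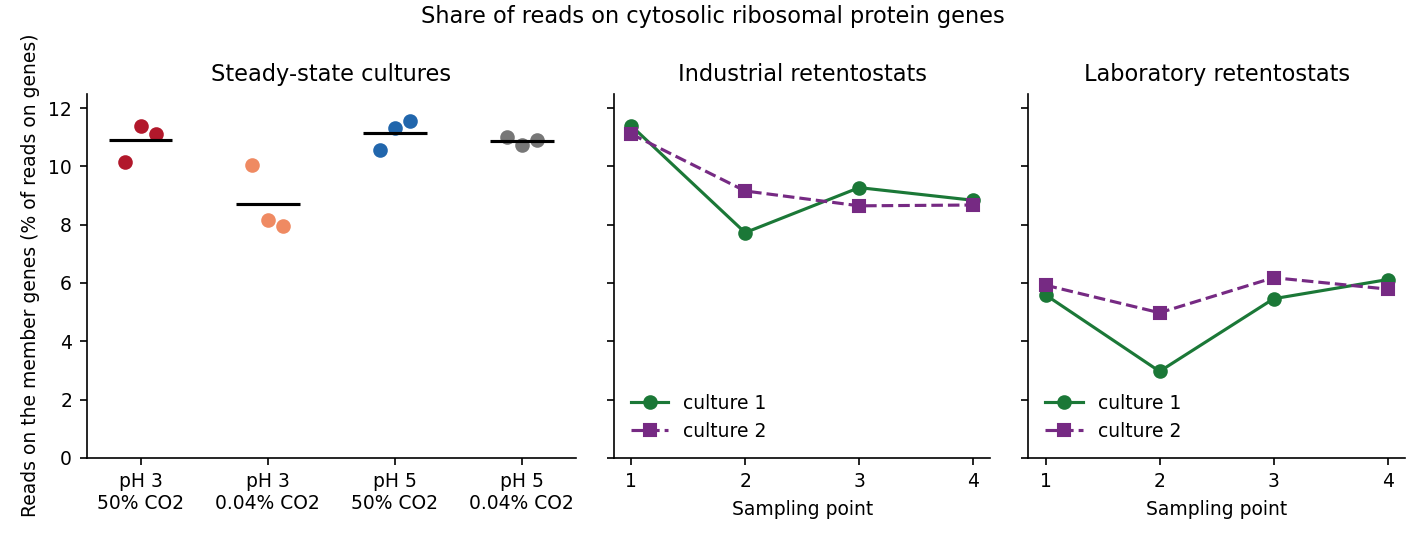
Share of reads on genes (y axis, %) that fell on the 137 ribosomal protein genes in each library, by steady-state group (left, bars are means) and by sampling point in the industrial (middle) and laboratory (right) retentostats. The 3 libraries of pH 3 with 0.04% CO2 lie at 7.94% to 10.0%, and both industrial cultures lie at 11.1% or more at the first point and at 9.27% or less at every later point.

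Some libraries stood apart in the members. Among steady states, replicate 3 of pH 3 with 50% CO2, replicate 1 of pH 5 with 50% CO2 and replicate 3 of pH 5 with 0.04% CO2 had lower levels of all stalk genes except *RPP0* at pH 3 with 50% CO2 than the other libraries of their groups. In the laboratory retentostats, culture 1 at the second point had 2.97% of reads on members, against 4.98% in culture 2. Calls that change without these and other libraries are given with each comparison. Counts without a library or under other scalings are given without the share of all genes called. They show only how far the member calls moved. Genes were called where limma's moderated test on log2(scaled FPKM + 1) gave a Benjamini-Hochberg adjusted p under 0.05 over all genes in the fit, whatever the size of the change, and all tests were two-sided.

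High CO2 at pH 5 left the members at nearly the level of the pH 5 cultures with 0.04% CO2. None of the 137 passed the test, against 1.93% of all 5188 genes tested, and 1 had an unadjusted p under 0.05. Their median log2 change was 0.05 and 99 of 137 lay above 0, whereas the median of all genes was −0.00. Replicates of a group differed in this median with an SD of 0.18, so the shift is within their spread. The highest stalk gene level illustrates the spread, since *RPP2A* had 2134, 5185 and 5370 scaled FPKM at pH 5 with 50% CO2, against 4098, 3970 and 2019 at pH 5 with 0.04% CO2.

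Low pH at 0.04% CO2 changed few members and left the set as a whole near the median of all genes. Of 137 members, 3 rose and 6 fell (6.57% called), against 21.3% of all genes tested, of which 13% rose and 8.35% fell. The largest rise was that of *RPP0*, the base of the stalk. *RPP0* had 2919, 2883 and 2917 scaled FPKM at pH 3 with 0.04% CO2, against 919, 1196 and 667 at pH 5 with 0.04% CO2. The groups did not overlap, with a log2 change of 1.69 (SE 0.29, adjusted p = 0.00234). The pH 3 libraries lay close together, but their source names all carry the number 3, so whether they are separate cultures is unsettled. For every comparison with this group, SE and p may thus not measure a spread between cultures.

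*RPL3*, a protein next to the site of peptide bond formation, moved in the same way. It had 2212, 2502 and 2434 scaled FPKM at pH 3 with 0.04% CO2, against 980, 1275 and 970 at pH 5 with 0.04% CO2. Its log2 change was 1.16 (SE 0.17, adjusted p = 0.000917), and *RPP0* and *RPL3* remained called in all 21 fits made for this comparison, at log2 changes of 1.25 to 1.89 and 0.72 to 1.29. Also rising was *RPL18B*, a gene of the large subunit, at 345, 423 and 381 against 236, 239 and 200 scaled FPKM (log2 change 0.76, adjusted p = 0.0172). It kept its call in 16 of the 21 fits.

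The falls were smaller than the largest rises. *RPL41B* had 13707, 11822 and 11088 scaled FPKM at pH 3 with 0.04% CO2, against 18797, 18440 and 16729 at pH 5 with 0.04% CO2, a log2 change of −0.56 (adjusted p = 0.0326). *RPS30B*, a copy of a small-subunit protein, had 1994, 2079 and 1886, against 3026, 2727 and 2774, a log2 change of −0.52 (adjusted p = 0.0202). *RPS29A*, which encodes a zinc-binding protein of the small subunit, changed by −0.50, and *RPL35B*, *RPS30A* and *RPL24A* by −0.48, −0.47 and −0.46. In each pair of groups named here the libraries did not overlap. Over all members, every pH 3 library lay above every pH 5 library for 37 and below for 37, against 25.5% and 20.7% of all genes.

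The split between rises and falls depends on the scaling. The median member changed by −0.03 and the median gene by −0.00 with scaled values, but by −0.46 and −0.42 with FPKM as deposited, where 2 members rose and 78 fell. With quantile normalization 2 rose and 44 fell, with medians of −0.30 for members and −0.05 for all genes. Without 1 library the count of called members, 9, fell to 2 (pH 3 with 0.04% CO2, replicate 2 or 3), 4 or 3 (pH 5 with 0.04% CO2, replicate 1 or 3), and rose to 15 (pH 3 with 50% CO2, replicate 3) or 19 (pH 5 with 50% CO2, replicate 1).

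High CO2 at pH 3 was the comparison of steady states in which most members changed, and the stalk genes stood at its lower end. Relative to pH 3 with 0.04% CO2, 10 members rose and 27 fell at pH 3 with 50% CO2, 37 of 137 (27.0%), against 49.1% of all genes, of which 22.8% rose and 26.3% fell. All 5 stalk genes fell, with a median log2 change of −1.44. Of the 76 large-subunit genes 7 rose and 12 fell, and of the 56 small-subunit genes 3 rose and 10 fell. Of the 23 members without a duplicate, which include the 5 stalk genes, 12 were called, against 25 of the 114 in pairs.

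*RPP0* had 725, 852 and 720 scaled FPKM at pH 3 with 50% CO2, against 2919, 2883 and 2917 at pH 3 with 0.04% CO2. On the log2 scale it fell by 1.93 (SE 0.29, adjusted p = 0.000671). At pH 5 it had 728, 1585 and 1569 with 50% CO2 and 919, 1196 and 667 with 0.04% CO2, so pH 3 with 0.04% CO2 is the group that stands alone for this gene. *RPP2A*, a P2 protein of the stalk, had 1100, 2787 and 2202 scaled FPKM at pH 3 with 50% CO2, against 6103, 5090 and 4871 at pH 3 with 0.04% CO2 (log2 change −1.49, SE 0.42, adjusted p = 0.0144). *RPP1B*, a P1 protein, had 1427, 2822 and 2330, against 6236, 5578 and 5388 (log2 change −1.44, adjusted p = 0.00543). *RPP1A* and *RPP2B* changed by −1.10 and −1.05 (adjusted p = 0.00663 and 0.012). In all 5 stalk genes the 3 libraries of each group did not overlap.

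Both copies of *RPL4* fell, whereas both copies of *RPL35* rose. *RPL4B*, whose protein reaches into the wall of the exit tunnel, had 363, 864 and 690 scaled FPKM at pH 3 with 50% CO2, against 1945, 1928 and 1910 at pH 3 with 0.04% CO2. Its log2 change was −1.68 (SE 0.37, adjusted p = 0.0048) and that of its copy *RPL4A* −1.33 (adjusted p = 0.0103). The largest rise was that of *RPL35B*, at the tunnel exit, with 1322, 1557 and 1632 scaled FPKM at pH 3 with 50% CO2, against 1059, 860 and 859 (log2 change 0.70, adjusted p = 0.00419). Its near-identical copy *RPL35A* rose by 0.44. *RPL31A*, also at the tunnel rim, had 2280, 2710 and 2935, against 1985, 1867 and 1745 (log2 change 0.50). *RPS30A* had 7406, 7260 and 7036, against 5323, 5288 and 5007 (log2 change 0.47, adjusted p = 0.0111).

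**Figure D2:**
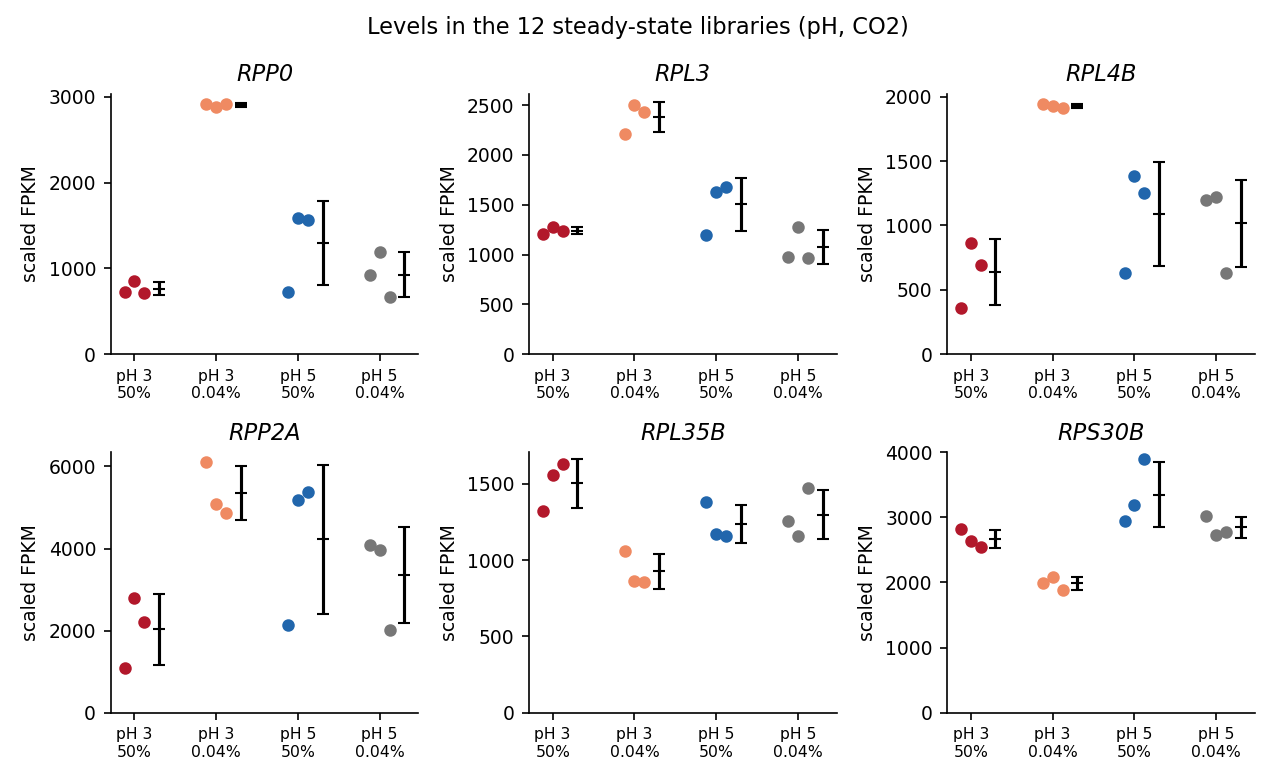
Levels (y axis, scaled FPKM, from 0) of 6 members in the 12 steady-state libraries, with each library a point and the mean and SD of the group (n = 3) as a black bar. *RPP0*, *RPL3* and *RPL4B* are highest in the 3 libraries of pH 3 with 0.04% CO2, at 2883 to 2919 for *RPP0*, whereas *RPL35B* and *RPS30B* are lowest there.

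Other members that fell included *RPS11B*, at −1.26, *RPL5*, which binds the smallest rRNA of the large subunit, at −0.98, and *RPL3*, at −0.94. Among those that rose were *RPL24A* and *RPL41B*, at 0.47 each, and *RPS30B*, at 0.42. *RPP0* and *RPL4B* remained called in all 22 fits of this comparison, at −2.01 to −1.32 and −2.41 to −1.08, and *RPP2A*, *RPL35B* and *RPS30A* in 21 of 22. The set as a whole gave no such stable direction. The median member changed by −0.11 and the median gene by 0.01, but the medians were 0.49 and 0.60 with FPKM as deposited (81 rose, 9 fell) and 0.34 and 0.09 with quantile normalization (64 rose, 15 fell). The number called, 37, was 24 without the first-point library of industrial retentostat 2 and 29 without replicate 3 of pH 3 with 50% CO2 (16 rose, 13 fell), and 19 and 20 without replicates 2 and 3 of pH 3 with 0.04% CO2.

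The interaction of pH and CO2 asks whether the effect of 50% CO2 at pH 3 differed from that at pH 5. It did for 12 members (8.76%), against 21.6% of all genes, with 2 above 0 (7.25% of all genes) and 10 below (14.4%). *RPP0* had the largest difference in effect, a log2 value of −2.36 (SE 0.40, adjusted p = 0.00441), called in all 21 fits. It was followed by *RPL4B* at −1.76, *RPL4A* at −1.60 and *RPL3* at −1.42, and others below 0 were *RPS11B*, *RPL5*, *RPP1A* and *RPL18B*. Above 0 were *RPL35B*, at 0.77, and *RPS30A*, at 0.59. *RPL4B* and *RPL4A* were called in 12 of 21 fits each, *RPL35B* in 14 and *RPS30A* in 10. The count, 12, rested on single libraries: it was 40 without replicate 1 of pH 5 with 50% CO2, 21 without the first-point library of industrial retentostat 1, and 2 to 4 without that of industrial retentostat 2, replicate 2 or 3 of pH 5 with 50% CO2, replicate 3 of pH 5 with 0.04% CO2, replicate 3 of pH 3 with 50% CO2, or replicate 2 or 3 of pH 3 with 0.04% CO2. With FPKM as deposited 60 members lay above and 6 below 0 (median 0.47), and with quantile normalization 28 and 7 (median 0.28), against a median of −0.16 in the main fit.

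Low pH together with high CO2, set against pH 5 with 0.04% CO2, left only *RPS11A* called. *RPS11A*, a protein of the small subunit's body, had 764, 1369 and 1092 scaled FPKM at pH 3 with 50% CO2, against 1761, 1932 and 1506 at pH 5 with 0.04% CO2 (log2 change −0.72, adjusted p = 0.0488). The share called, 0.730%, compares with 10.1% of all genes, of which 6.23% fell. *RPS11A* kept this call in 8 of 22 fits, and the count of 1 was 0 without any 1 of 8 libraries (the first-point library of industrial retentostat 2, replicates 1 and 2 of pH 5 with 0.04% CO2, replicates 2 and 3 of pH 5 with 50% CO2 and all 3 of pH 3 with 0.04% CO2) and 2 without replicate 3 of pH 5 with 0.04% CO2.

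Low pH at 50% CO2, set against pH 5 with 50% CO2, left 0 members called (17 at an unadjusted p under 0.05), against 6.3% of all genes. The count was 31 without replicate 1 of pH 5 with 50% CO2 and 2 without the first-point library of industrial retentostat 1. The median member changed by −0.19, and by −0.17 in the combined comparison. Where the only library of pH 3 with 50% CO2 was the one labelled as a chemostat, the median was −0.43 in the first of these comparisons and −0.40 in the second. The SD of this median between replicates of a group was 0.18, and a group of 1 library gives no spread of its own.

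**Figure D3:**
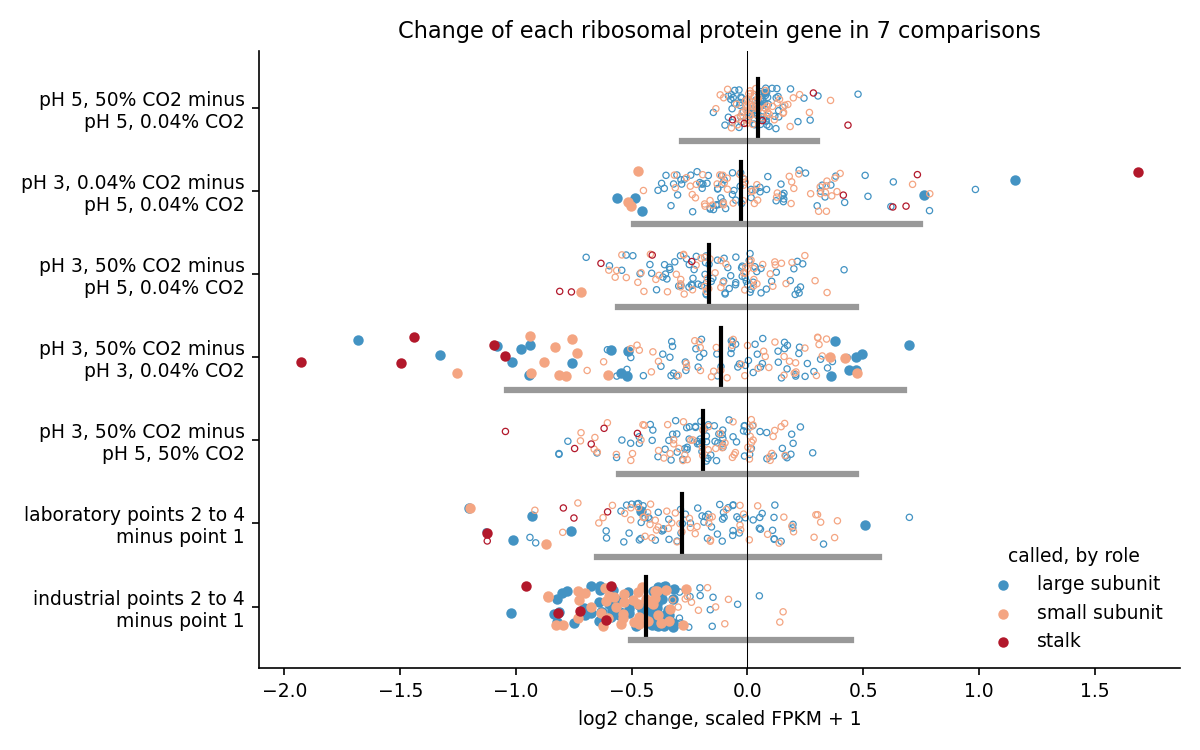
Log2 change of each member (x axis, on scaled FPKM + 1) in 7 comparisons (rows). Filled points are called, coloured by role; open points are not; the black tick is the member median and the grey bar spans the 10th to 90th percentile of all genes. The stalk genes lie at the low end at pH 3 with 50% CO2 against pH 3 with 0.04% CO2 (median −1.44), and nearly the whole set lies below 0 at industrial points 2 to 4.

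Nearly the whole set was lower at the later points of the industrial retentostats than at the first. By the methods of the study, the oscillations of low-pH cultures subsided during retention, so the first and later points may differ in this too. The part of the oscillations in the drop was not tested. In the mean of points 2 to 4 against point 1, a measure chosen after the values were seen, 111 of 137 members (81.0%) fell and 0 rose, against 32.9% of all genes called, of which 16.2% rose and 16.7% fell. The median log2 change of members was −0.44, against 0.00 for all genes, with an SD of 0.06 between the cultures, and 134 of 137 lay below 0. For 122 of the members both libraries of point 1 lay above all 6 later libraries, against 21.2% of all genes. Of the large subunit 63 of 76 fell, of the small subunit 43 of 56 and of the stalk 5 of 5. Of members without a duplicate, stalk genes included, 22 of 23 fell, against 89 of 114 in pairs. In 36 of the 57 pairs both copies fell, in 17 only 1 was called and in 4 neither.

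The drop had taken place by the second point. Relative to point 1, the median member changed by −0.48 at point 2, −0.43 at point 3 and −0.46 at point 4, with 133 of 137 below 0 at each. Culture 1 gave −0.58, −0.42 and −0.51 and culture 2 gave −0.40, −0.46 and −0.43. Along a slope per sampling point 16 members fell and 0 rose, against 16.1% of all genes called, 7.89% up and 8.25% down, and 8 fell with a block for culture. Without point 1 the slope called 0 members and had a median of 0.01, and last minus first point called 89. The 16 were 90 without culture 1 at point 2, 4 and 1 without culture 1 and culture 2 at point 4, 2 and 3 without them at point 3, and 1 without either first-point library.

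*RPL4A*, of the tunnel wall, fell most. It had 617 and 478 scaled FPKM at point 1, 261 and 277 at point 2, 354 and 241 at point 3 and 264 and 224 at point 4, a log2 change of −1.02 (SE 0.17, adjusted p = 0.00586). *RPP2A* of the stalk had 2787 and 2202 at point 1, 1448 and 1244 at point 2, 1565 and 1240 at point 3 and 1210 and 1026 at point 4 (log2 change −0.96, SE 0.15, adjusted p = 0.00487). *RPS22A*, a protein of the small subunit, had 937 and 751 at point 1, 484 and 483 at point 2, 475 and 434 at point 3 and 463 and 428 at point 4 (log2 change −0.86, SE 0.11, adjusted p = 0.00259). In all 3 genes each later library lay below both first-point libraries. *RPS22A* was called in all 16 fits and *RPL4A* and *RPP2A* in 15.

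The other stalk genes fell by similar amounts. *RPP2B* fell by 0.82 on the log2 scale (adjusted p = 0.006), *RPP1B* by 0.72 (adjusted p = 0.00715), *RPP0* by 0.61 (adjusted p = 0.0124) and *RPP1A* by 0.59 (adjusted p = 0.00971). *RPS28B*, a low copy whose partner is *RPS28A*, had the steepest slope over the 4 points, −0.36 per point (SE 0.06, adjusted p = 0.00585). It had 98.9 and 87.3 scaled FPKM at point 1, 59.3 and 69.1 at point 2, 50.6 and 42.1 at point 3 and 49.9 and 39.1 at point 4, so that unlike the set its level kept dropping after point 2.

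A total of 26 members did not pass the test, with log2 changes of −0.50 to 0.15. Among them were both copies of *RPL41* and of *RPS30*, which encode very small proteins. *RPL41A* and *RPL41B* changed by 0.05 and −0.04, and *RPS30A* and *RPS30B* by 0.15 and 0.14. *RPS30A* had 7260 and 7036 scaled FPKM at point 1, 8401 and 7562 at point 2, 7380 and 7537 at point 3 and 8255 and 8679 at point 4, so no later library lay below both first ones. Also not called were both copies of *RPS25* and of *RPS27*, and *RPL39*, whose changes ran from −0.24 to −0.08. These genes were singled out after their values were seen.

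Under other scalings 79 to 111 members fell. The call rests on the only 2 libraries of point 1: without that of culture 1 only 2 members were called, and without that of culture 2 56 were, although the median stayed between −0.51 and −0.40 without any 1 library. Without either fourth-point library 69 and 62 were called.

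**Figure D4:**
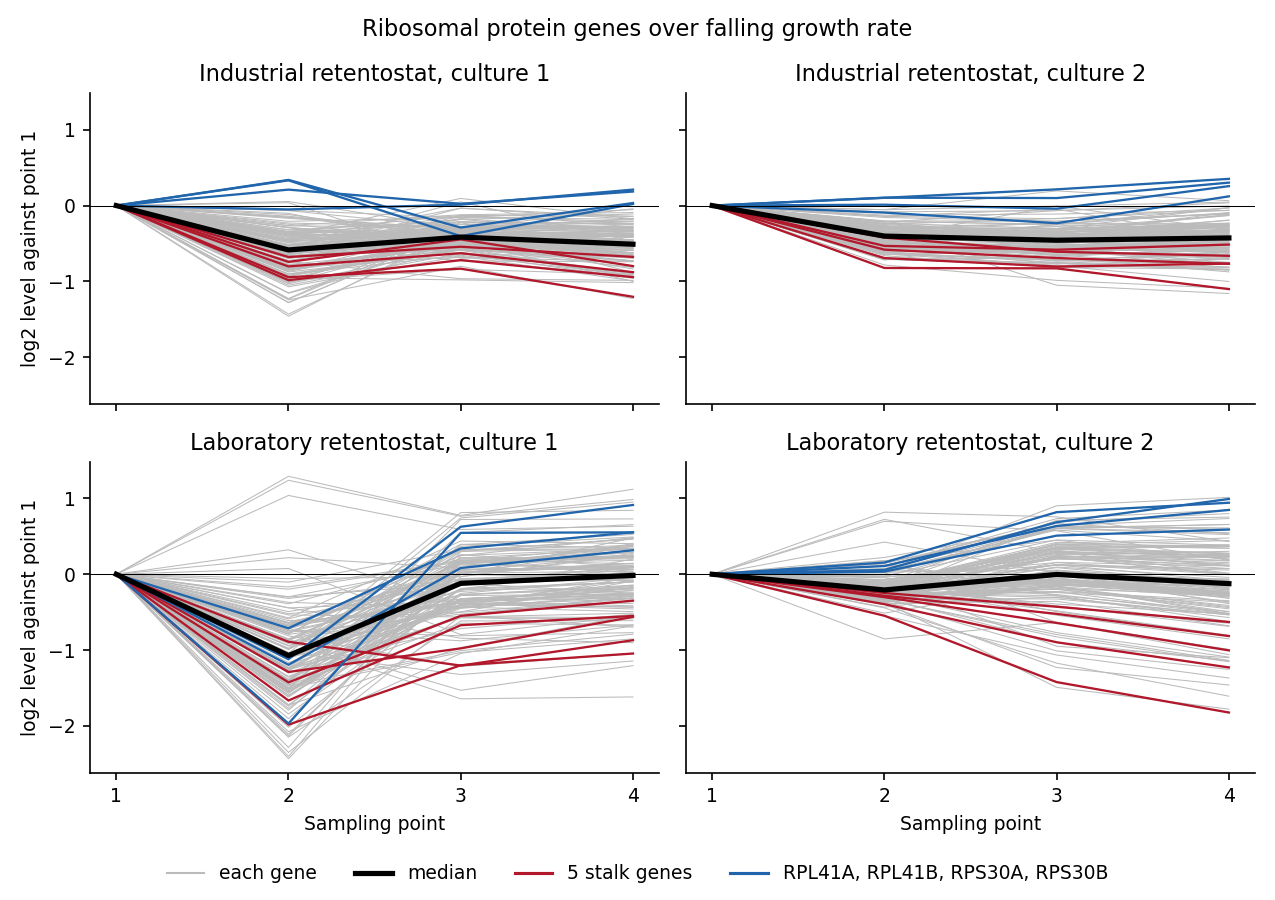
Log2 level of each member (grey) against the first sampling point of its own culture (y axis) over the 4 sampling points (x axis), with the median in black, the 5 stalk genes in red and *RPL41A*, *RPL41B*, *RPS30A* and *RPS30B* in blue. In both industrial cultures the median drops to between −0.58 and −0.40 at points 2 to 4, whereas in the laboratory cultures it returns to between −0.12 and −0.00 at points 3 and 4.

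In the laboratory retentostats the median member was lowest at point 2 and near its first level at points 3 and 4. The median log2 change against point 1 was −0.65 at point 2, −0.06 at point 3 and −0.07 at point 4, with 132, 74 and 78 of 136 members below 0. Culture 1 gave −1.07, −0.12 and −0.01 and culture 2 gave −0.21, −0.00 and −0.12, so the cultures differed most at point 2. The SD taken for this median was 0.39, a single value for points 2, 3 and 4 and not the spread at point 2. Without culture 1 at point 2, the library that stood apart, the fitted median was −0.17. At point 2 alone 0 members were called by limma and by limma voom (31 at an unadjusted p under 0.05 by limma), against 0% of all genes. For the mean of points 2 to 4 the median was −0.28, with an SD of 0.34 between cultures, against 0.04 for all genes, and 1 member rose and 8 fell of 136 (6.62%), against 30.3% of all genes called, 15.6% up and 14.7% down. For 48 members every later library lay below both libraries of point 1, against 18.5% of all genes. *RPL33A* was below the limit on low values, which is per kilobase of gene span, in these libraries and was not tested.

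The members called lower were *RPL5*, *RPS11B*, *RPP0*, *RPL4A*, *RPL7A*, *RPS11A*, *RPL6B* and *RPL7B*. *RPL5* had 1160 and 1202 scaled FPKM at point 1, 628 and 912 at point 2, 371 and 512 at point 3 and 378 and 437 at point 4, a log2 change of −1.20 (SE 0.22, adjusted p = 0.00775). *RPS11B* had 484 and 538, then 267 and 417, 168 and 191, and 210 and 157 at the same points (log2 change −1.20, SE 0.20, adjusted p = 0.00647). *RPP0* had 529 and 658, then 285 and 450, 230 and 245, and 289 and 186 (log2 change −1.12, SE 0.24, adjusted p = 0.014). *RPL3* and *RPP2B* had changes as large, −1.13 and −1.12, that did not pass the test (adjusted p = 0.062 and 0.0531). Unlike the median member, *RPL5*, *RPS11B* and *RPP0* were lower at points 3 and 4 than at point 2 in culture 2. The 1 member called higher was *RPL43A*, whose values in these libraries were only 23.7 to 48.7 scaled FPKM, with a log2 change of 0.51 (adjusted p = 0.0431).

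Along a slope over the 4 laboratory points 1 member rose and 8 fell of 136, against 30.7% of all genes called, 16.4% up and 14.3% down. The lowest slopes were those of *RPL5*, at −0.54 per point (adjusted p = 0.00574), *RPS11B*, at −0.53, and *RPP0*, at −0.46, followed by *RPL4A*, *RPS11A*, *RPL6B*, *RPS15* and *RPL7B*. *RPS10B* rose by 0.21 per point (adjusted p = 0.0455). The median member had a slope of 0.03. The count of 9 was 49 without culture 1 at point 2 (17 rose, 32 fell), 3 without either first-point library and 4 without culture 2 at point 4. For the mean of later points the count of 9 was 37 and 84 without culture 1 and culture 2 at point 2, 0 without either first-point library and 4 without either library of point 3.

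For the change from point 1 to later points, industrial minus laboratory, 2 members were called, *RPL33A* and *RPL43A*, and 9 had an unadjusted p under 0.05. Of all genes, 4.18% were called and 1.57% were called lower. *RPL33A* gave −1.30 and *RPL43A* −0.96 (SE 0.19, adjusted p = 0.021), both from genes near the bottom of the laboratory range. *RPL33A* passed the limit on low values here only through the industrial libraries, so its value is a description. *RPL43A* passed that limit in both sets, but with only 23.7 to 48.7 scaled FPKM in the laboratory libraries, against 2628 to 4860 in the 18 libraries outside the laboratory retentostats. Its call thus rests on low laboratory values. Neither call is taken to show a difference between the conditions. The count was 25 and 8 without culture 1 and culture 2 of the laboratory retentostats at point 2, 0 without either laboratory library of point 1 or that of industrial culture 1, and 1 without that of industrial culture 2. For the difference in slope 0 members were called (19 at an unadjusted p under 0.05), against 5.5% of all genes, and 21, 3 and 2 were called without laboratory culture 1 at point 2, laboratory culture 1 at point 4 and industrial culture 1 at point 2. The 111 calls in the industrial cultures and 9 in the laboratory ones are values side by side, and do not show that the changes differed.

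Some members had very different values in all 8 laboratory retentostat libraries. *RPS13*, a protein of the small subunit, had 303 to 1104 scaled FPKM there and 54.4 to 156 in the 18 other libraries, a log2 ratio of 3.06, and *RPS28B* had a ratio of 1.43. Others were much lower there. *RPL36B* had 13.6 to 23.9 scaled FPKM there, and 2050 to 3953 in the 18 other libraries. *RPL39*, *RPL43A*, *RPL33A*, *RPL22A*, *RPL28* and *RPL41A* gave log2 ratios of laboratory to other libraries between −7.24 and −5.03. All of these but *RPL41A* have, by systematic number, a neighbour on the opposite strand that is in the files and not in R64, as 26 of the 137 members do. The median log2 ratio of laboratory to other libraries was −1.82 for those 26 and −1.13 for the remaining 111, and −0.27 and −0.07 for 810 and 4517 genes of the genome with and without such a neighbour. The part of these neighbours in the low values was not tested, and tests within the laboratory retentostats on these members rest on low values.

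Paralogs of a pair were compared by the log2 ratio of their levels per length. The A copy was higher in 34 pairs and the B copy in 23, by the median over libraries. Over the 26 libraries the ratio ranged most in *RPL36*, *RPL33*, *RPL22*, *RPL43*, *RPS28* and *RPL41*, which contain members with such low laboratory values or, in *RPS28*, a shift between the laboratory libraries (2.01 to 2.67) and the others (5.00 to 7.05). Within the 18 other libraries pairs with a wide range, picked after their values were seen, included *RPS28*, *RPS22*, *RPS29*, *RPL22*, *RPL14* and *RPS27*.

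*RPL14* and *RPS22* changed their balance with the condition. For *RPL14*, a large-subunit protein, the log2 ratio of A over B was 0.30 to 0.43 at pH 3 with 50% CO2, 0.85 to 1.01 at pH 3 with 0.04% CO2, 0.31 to 0.74 at pH 5 with 50% CO2 and 0.79 to 0.87 at pH 5 with 0.04% CO2. At industrial points 2 to 4 it was −0.22 to −0.02, below both first-point libraries, so the B copy became the higher one. For *RPS22* it was −0.31 to −0.12 at pH 3 with 50% CO2, −0.04 to 0.15 at pH 3 with 0.04% CO2, 0.08 to 0.35 at pH 5 with 50% CO2 and 0.33 to 0.57 at pH 5 with 0.04% CO2, and −1.11 to −0.41 at industrial points 2 to 4. These ratios were described and not tested.

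In *RPS29* the ratio followed the B copy between CO2 levels at pH 3. *RPS29B* had 2816, 4778 and 3667 scaled FPKM at pH 3 with 50% CO2, against 7259, 7249 and 6629 at pH 3 with 0.04% CO2, a log2 change of −0.94, whereas *RPS29A* had 1883, 2038 and 1989, against 1782, 1819 and 1694. The log2 ratio was −1.23 to −0.58 in the 3 libraries of pH 3 with 50% CO2 and −2.03 to −1.97 in those of pH 3 with 0.04% CO2. For pH 3 against pH 5 at 0.04% CO2, *RPS29A* fell by 0.50 on the log2 scale, and *RPS29B* had a change of 0.34 (adjusted p = 0.464).

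**Figure D5:**
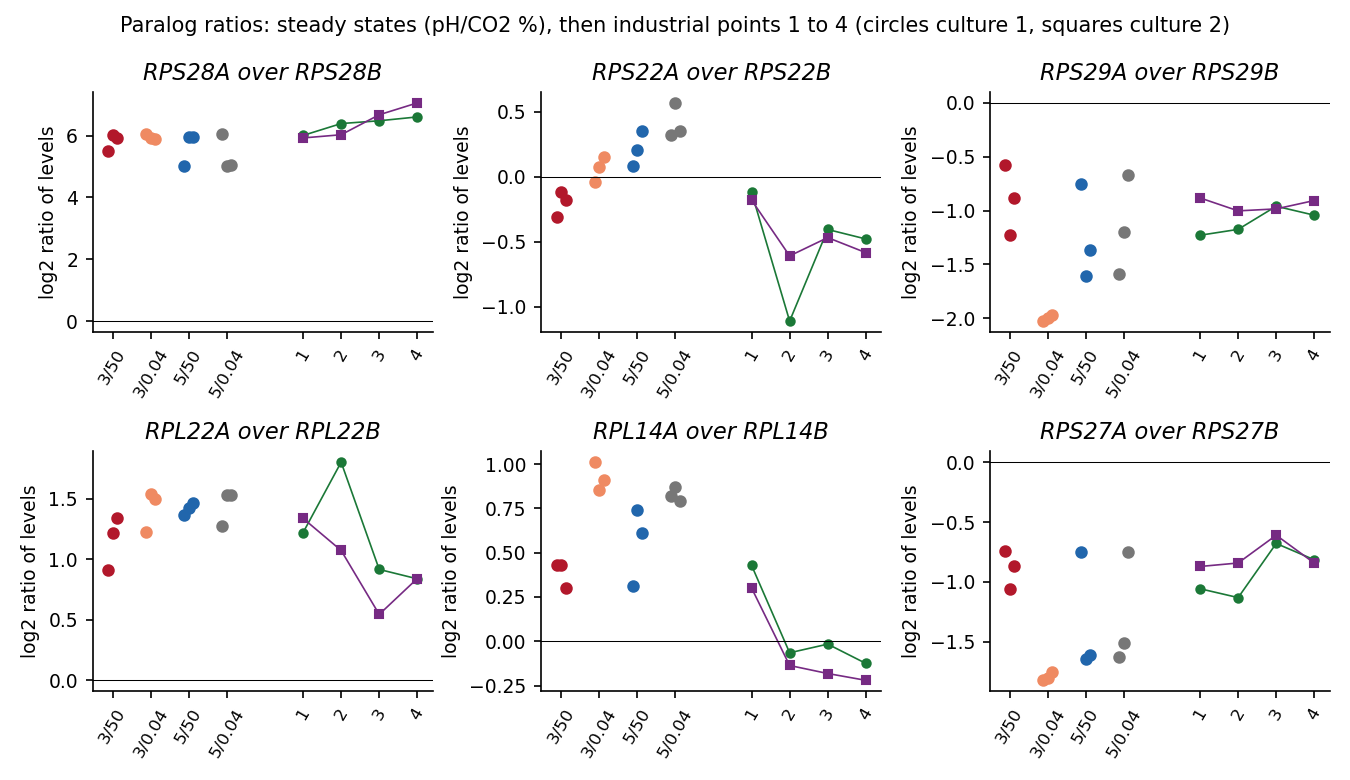
Log2 ratio of the level of the A copy to that of the B copy (y axis) in 6 pairs, for the 4 steady-state groups (pH/CO2 in %, each point a library) and the 4 industrial sampling points (circles culture 1, squares culture 2). *RPL14* drops to −0.22 to −0.02 at points 2 to 4, and *RPS29* is at −2.03 to −1.97 in all 3 libraries of pH 3 with 0.04% CO2.

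Pairs alike in sequence were not always alike in level. The pairs with the most similar coding sequence, *RPL1* (99.4% identical), *RPL35* and *RPS6*, had median log2 ratios of −0.90, 0.54 and −0.06, and the least similar, *RPL22* (78.9%), *RPS27* and *RPS7*, had 1.00, −1.52 and 2.03. By protein the least similar were *RPL22* (84.4%), *RPS7* (87.9%) and *RPL16* (89.9%). At industrial points 2 to 4 the copies changed alike, with a median absolute difference of 0.15 between the log2 changes of A and B and the same sign in 56 of 57 pairs. The largest such difference was 0.59. In the comparison of high CO2 at pH 3 the median difference was 0.21, the largest was 1.10 and 43 pairs shared their sign. *RPL22A* fell at industrial points 2 to 4, by 0.78 on the log2 scale (adjusted p = 0.00262), and *RPL22B*, whose splicing is known to be controlled by its own product, had −0.50 (adjusted p = 0.0805).

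The change of a member went with the length of its coding sequence, described here over members that share their libraries. Between length and log2 change at industrial points 2 to 4, Spearman's rho was −0.46 over the 137 members and 0.01 over 5035 genes, and at laboratory points 2 to 4 it was −0.60 over 136 members and −0.11 over 5450. For pH 3 against pH 5 at 0.04% CO2 it was 0.40 over members and 0.09 over 5084 genes, and for 50% against 0.04% CO2 at pH 3 it was −0.33 and −0.03. The 47 members of 78 to 384 bases changed by a median of −0.36 at industrial points 2 to 4, with 29 called lower, against 0.20 for the 348 other genes of that length. The 45 members of 387 to 531 bases gave −0.43 (41 lower), against 0.05, and the 45 of 555 to 1164 bases −0.59 (41 lower), against −0.03. Members of each length thus lay below other genes of their length. The same groups gave −0.17, −0.01 and 0.16 at pH 3 with 0.04% CO2 against pH 5 with 0.04% CO2, and 0.13, −0.09 and −0.32 for 50% against 0.04% CO2 at pH 3. The part of length, and of the steps that depend on it, in these values was not tested.

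Members with and without the Rap1-type letters gave similar values. At industrial points 2 to 4, 56 of 68 members with a match fell, with a median of −0.46, against 55 of 69 without one, with a median of −0.43. For 50% against 0.04% CO2 at pH 3 the medians were −0.15 with a match and −0.11 without.

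The rest of the translation machinery was taken from lists of known genes and described by the same fits. At industrial points 2 to 4, 11 of 14 ribosome-bound and hibernation factors fell and 1 rose, with a median log2 change of −0.53, where 16.7% of all genes fell and 16.2% rose. The factor that rose was *LSO1*, whose paralog Lso2 binds idle ribosomes, by 1.69 on the log2 scale (SE 0.20, adjusted p = 0.00227), and *ASC1*, a scaffold on the small subunit, fell by 0.86. Of the termination factors 4 of 5 fell, among them *RLI1*, the recycling factor, by 0.87, and of the elongation factors 4 of 10, among them *TEF4* by 0.72 and *EFB1* by 0.68. Of the initiation factors 11 of 29 fell and 1 rose. Of the ribosome biogenesis factors 17 of 127 fell and 1 rose, a share near or under that of all genes. Their median log2 change was still −0.39, against 0.00 for all genes and −0.44 for the ribosomal protein genes. None of 14 chaperones of ribosomal proteins was called in that comparison.

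Mitochondrial ribosomal proteins went the other way at industrial points 2 to 4. Of 74 tested, 25 rose and 0 fell, where 16.2% of all genes rose and 16.7% fell. The median log2 change of the 74 was 0.46, and *MRPL33*, at 0.90 (adjusted p = 0.00309), and *MRPL37*, at 0.78, were among those that rose. In the laboratory retentostats 4 rose and 10 fell, with a median of −0.01, and 44 of 134 biogenesis factors fell, where 14.7% of all genes fell and 15.6% rose. *LSO1* rose there too, by 1.80 (adjusted p = 0.0115).

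For 50% against 0.04% CO2 at pH 3, 76 of 128 biogenesis factors rose and 2 fell (median 0.66), 31 of 74 mitochondrial ribosomal proteins rose and 7 fell (median 0.40), and 8 of 14 ribosomal protein chaperones rose and 1 fell, where 22.8% of all genes rose and 26.3% fell. Of the elongation factors 7 of 11 fell, among them *ANB1*, the form of translation factor eIF5A made at low oxygen, and *HYP2*, the other form. *ANB1* fell by 2.59 on the log2 scale (SE 0.36, adjusted p = 0.000487) and *HYP2* fell by 1.45. For pH 3 against pH 5 at 0.04% CO2, 4 elongation factors rose, *ANB1* by 2.90 and *TEF2* by 1.05 among them, while 34 of 74 mitochondrial ribosomal proteins fell, where 8.35% of all genes fell and 13% rose. The 14 of 128 biogenesis factors that fell are near that share, and the median log2 change of the 128 was −0.38, against −0.00 for all genes. Of 17 regulators of ribosomal protein genes tested, 8 fell and 2 rose for 50% against 0.04% CO2 at pH 3, and 1 fell and 3 rose for pH 3 against pH 5 at 0.04% CO2. *SCH9*, a kinase downstream of TORC1, fell by 1.21 for 50% against 0.04% CO2 at pH 3 and rose by 0.77 at pH 3 against pH 5 at 0.04% CO2, whereas *IFH1*, the coactivator of these genes, rose by 0.89 in the first of these. The lists were described with the main scaling and all libraries only. With FPKM as deposited the median of all genes was 0.60 in the first of these comparisons and −0.42 in the second, against 0.01 and −0.00 here. The counts and directions of the lists thus depend on the scaling.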

How the data were processed

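RNA from steady-state and retentostat cultures was sequenced in 26 libraries. The authors aligned reads to S288C with STAR 2.5.3a, removed ambiguously mapped reads, counted with HTSeq and deposited FPKM, with no scaling between libraries. Of genes with at most 1000 reads, 99.7% to 99.9% gave whole reads (to within 0.05) when FPKM was multiplied by the gene's span, introns included, and such reads were also tested with limma voom. Levels printed are per kilobase of coding sequence. The limit on low values and the tests used values per kilobase of gene span, introns included. Of the identifiers, 5917 were in R64 and 683 were not.

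Libraries were scaled by a trimmed mean of log ratios (30% of ratios and 5% of levels trimmed at each end) against the geometric mean of all 26. Genes with a mean of at least 10 over the libraries fitted were tested on log2(scaled FPKM + 1) with limma 3.58.1 in R 4.3.3 (trend in eBayes, Benjamini-Hochberg over all genes in the fit), where the added 1 shrinks the change of low genes. The 5 steady-state contrasts and the interaction came from a single fit of 12 libraries and share controls, and the first-point industrial libraries serve in steady states and retentostats alike. Replicates are the samples that the titles number, and p-values measure the spread between them. The source names of the 3 libraries of pH 3 with 0.04% CO2 all carry the number 3, so the labels leave unsettled whether these are separate cultures; their values differ. The retentostat number is the same culture sampled repeatedly, which pairs the samples. Deviations of a culture's libraries correlated between −0.01 and 0.72 in laboratory and −0.07 and 0.27 in industrial retentostats. The steady-state numbers pair nothing.

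Members and lists were chosen with earlier results of these data known, and the contrasts of later points after seeing the data. Named were the 3 members called with the largest change each way per comparison, the stalk genes, the 6 pairs with the widest range of ratio, the members of highest and lowest level, the pairs most and least alike, and at most 2 genes each way per list. Other names were chosen after their values were seen. Scripts were tested on simulated data and used python 3.11.15, pandas 2.3.3 and matplotlib 3.10.9. The deposited tables hold no comparisons by the authors. Tables of proteins were not used here. Some results that the rule for names would give are not reported here.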

Additional observations from a re-analysis of the deposited data

Results flagged for a closer look

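The effect of 50% CO2 at pH 3 differed from that at pH 5 for 12 members (8.76%) by the test of the interaction, against 21.6% of all genes, and for 2 to 40 members without 1 library. Below 0 the largest were *RPP0* at −2.36, *RPL4B* at −1.76 and *RPL4A* at −1.60, and above 0 were *RPL35B* at 0.77 and *RPS30A* at 0.59 on the log2 scale. *RPP0* had 725, 852 and 720 scaled FPKM at pH 3 with 50% CO2, against 2919, 2883 and 2917 at pH 3 with 0.04% CO2, and 728, 1585 and 1569 at pH 5 with 50% CO2, against 919, 1196 and 667 at pH 5 with 0.04% CO2.

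For the change at later sampling points, industrial minus laboratory, 2 members were called, against 4.18% of all genes. Neither call is taken to show a difference between the conditions, since both rest on low laboratory values. *RPL33A* gave −1.30 and *RPL43A* −0.96 (industrial minus laboratory), and *RPL33A* had 1675 to 3456 and *RPL43A* 2628 to 4860 scaled FPKM in the 18 libraries outside the laboratory retentostats, against 15.7 to 39.6 and 23.7 to 48.7 in the laboratory retentostats. *RPL33A* did not pass the limit on low values, which is per kilobase of gene span, in the laboratory libraries alone. Its value is thus a description.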

How the results depend on the processing

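Counts of called members and medians of their log2 change were recomputed with a pseudocount of 0.1, no filter on low values, other scalings, limma voom on recovered reads, other sets of libraries and the study's limits. Except for voom, the share of all genes called is not given beside these counts. They thus do not show whether the members stood out. With FPKM as deposited the members called numbered 80 for low pH at 0.04% CO2 (median −0.46), 0 for low pH plus high CO2, 90 for high CO2 at pH 3 (0.49), 66 for the interaction (0.47), 15 for the laboratory trend (8 up, 7 down, 0.091), 6 for the industrial trend (−0.10), 3 for the slope difference and 4 for the difference of later points, with medians of −0.0031 for low pH at 50% CO2 and −0.37 for industrial later points. With quantile normalization they numbered 46 (−0.30), 79 for high CO2 at pH 3 (0.34), 35 for the interaction (0.28), 1 for low pH at 50% CO2, 3 for the slope difference and 1 for the difference of later points, with medians of −0.10 for the industrial trend and −0.37 for industrial later points. Median scaling gave 0 for low pH plus high CO2 and 9 for the industrial trend (−0.12), and no filter on low values gave 0 and, for the slope difference, 1. With only the groups compared, 9 were called for low pH at 0.04% CO2 (7 up, 2 down) and 0 for low pH plus high CO2. With the single chemostat-labelled library at pH 3 with 50% CO2, 11 were called for low pH plus high CO2 (−0.40), 14 for low pH at 50% CO2 (−0.43) and 28 for the interaction (−0.44), and the median for high CO2 at pH 3 was −0.39. At the study's limits 2, 0, 3 and 2 were called for low pH at 0.04% CO2, low pH plus high CO2, high CO2 at pH 3 and the interaction, and 2 and 1 for the laboratory and industrial trends. Last minus first point gave a median of −0.0732 in the laboratory, 89 calls (−0.46) in the industrial retentostats and 1 call (−0.37) for their difference. Without the first point 0 were called in both, with medians of 0.27 and 0.0141, and the median of the slope difference was −0.24. Limma voom on recovered reads called 2482 of 5084 genes and 37 members for high CO2 at pH 3, 1728 of 5035 genes and 111 members for industrial later points, and 0 members for high CO2 at pH 5, for low pH at 50% CO2 and for the slope difference. For the difference of later points it called 131 genes, against 231 with scaled FPKM, and 2 members with both. The causes were not tested.

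A replicate block gave 5 members for low pH at 0.04% CO2 (3 up, 2 down), 0 for low pH plus high CO2, 29 for high CO2 at pH 3 and 5 for the interaction, where steady-state numbers are only names. In the retentostats, where the number is the culture, it gave 8 for the industrial trend and changed no other count by more than 1.5 times.

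Without 1 library at a time the counts ran from 0 to 0 for high CO2 at pH 5 (medians −0.02 to 0.16), 2 to 19 for low pH at 0.04% CO2 (−0.07 to −0.00), 0 to 2 for low pH plus high CO2 (−0.25 to −0.03), 19 to 48 for high CO2 at pH 3 (−0.19 to 0.02), 0 to 31 for low pH at 50% CO2 (−0.33 to −0.06) and 2 to 40 for the interaction (−0.28 to −0.01). They ran from 3 to 49 for the laboratory trend (−0.0154 to 0.0874), 1 to 90 for the industrial trend (−0.15 to −0.0822), 0 to 21 for the slope difference (−0.22 to −0.11), 0 to 84 for laboratory later points (−0.43 to −0.11), 2 to 128 for industrial later points (−0.51 to −0.40) and 0 to 25 for the difference of later points (−0.36 to −0.02). These counts too are given without the share of all genes called. The precision is limited by 2 cultures per retentostat condition and 3 libraries per steady state.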
